A study of Homo sapiens with 6 samples.

Results

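The 35 genes encoded by the mitochondrial genome that were listed in the deposited table, out of 26025 genes in all, were compared between norepinephrine-treated and control lung cancer cells. Members were all genes whose symbol begins with MT-, a rule that uses no measured value. They comprised 13 mRNAs, 2 rRNAs and 20 tRNAs. The annotation used here holds 37 such genes, and the tRNA genes MT-TF and MT-TW were not analysed here. All 13 mRNAs, both rRNAs and 11 tRNAs had a mean of at least 10 normalized counts and were tested, whereas 9 tRNAs lay under this minimum.

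NCI-H1299 cells are a widely used human line derived from non-small cell lung cancer. Cells were starved for 8 to 12 h and then kept for 48 h in medium with 2% serum, either with vehicle (Ctrl, n = 3 libraries) or with 10 µM norepinephrine (NE, n = 3 libraries). NE is a stress hormone that signals through adrenergic receptors, and the comparison addressed which genes it changes in these cells. The sample records name the vehicle both as DMSO and as PBS. Nothing in them says that the replicates were separate cultures, so the p-values measure only the spread between these libraries, which may be technical. The results hold for 1 cell line at 1 dose and 1 time.

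Human mitochondria keep a small circular genome that encodes core subunits of the respiratory chain and ATP synthase, the RNAs of the mitochondrial ribosome and a set of tRNAs. Both strands are transcribed into long precursors, which are cut apart mostly at the tRNAs that lie between the larger genes. The mRNAs then receive short poly(A) tails, and the other subunits of the same complexes are imported as proteins encoded in the nucleus.

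Each library held between 16852751 and 17979206 reads on genes. The deposited values are normalized counts, that is, reads per gene divided by 1 size factor for each library. Ctrl replicate 3 stood apart, with 7305 genes at 0 against 4829 and 4833 in the other Ctrl libraries and 3954 to 4416 in the NE libraries. Results that rest on it are given with and without it. Ctrl replicates 1 and 2 differed less in reads per gene (chi-square per degree of freedom 2.89) than any pair of NE libraries (5.42 to 24.71). Small p-values without Ctrl replicate 3 thus rest in part on this narrow Ctrl spread. Of the markers of the line, VIM averaged 66719 and KRT18 22472 normalized counts in Ctrl. Of 8 markers of other cells, 6 were listed, ALB was at 0 in all Ctrl libraries, and the highest mean was 26.7 normalized counts, for PECAM1. The part of other cells in the results was not tested.

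The sequences of 6 members on which the results turn are given 5′ to 3′ on the strand of the gene, from the GENCODE v44 transcripts on hg38. MT-ND4L, the mRNA with the largest fold change, lies on the plus strand at chrM:10470-10766 and shares its last 7 bases with MT-ND4. MT-ATP8, whose level per kilobase was far below that of every other mRNA, lies on the plus strand at chrM:8366-8572 and shares its last 46 bases with MT-ATP6. In both, capitals mark the shared bases.
MT-ND4L: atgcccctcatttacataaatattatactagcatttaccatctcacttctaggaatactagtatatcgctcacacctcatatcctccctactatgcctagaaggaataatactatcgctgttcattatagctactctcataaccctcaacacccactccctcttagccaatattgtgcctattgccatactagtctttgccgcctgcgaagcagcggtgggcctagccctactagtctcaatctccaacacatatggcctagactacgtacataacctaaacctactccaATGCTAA
MT-ATP8: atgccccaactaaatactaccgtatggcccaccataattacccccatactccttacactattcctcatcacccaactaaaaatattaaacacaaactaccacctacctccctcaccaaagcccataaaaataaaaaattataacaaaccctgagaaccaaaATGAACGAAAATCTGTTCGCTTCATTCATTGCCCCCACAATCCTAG
The next 4 are tRNA genes on the minus strand, shown because each passed the test once Ctrl replicate 3 was left out, MT-TN at chrM:5657-5729, MT-TC at chrM:5761-5826, MT-TY at chrM:5826-5891 and MT-TP at chrM:15956-16023. Their capitals mark the anticodon. MT-TC and MT-TY share 1 base.
MT-TN: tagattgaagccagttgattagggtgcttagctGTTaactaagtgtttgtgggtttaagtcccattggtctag
MT-TC: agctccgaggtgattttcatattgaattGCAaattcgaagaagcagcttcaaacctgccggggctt
MT-TY: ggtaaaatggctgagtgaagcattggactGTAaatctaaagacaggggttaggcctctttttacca
MT-TP: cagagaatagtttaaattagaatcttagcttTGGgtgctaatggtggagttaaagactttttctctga

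Mitochondrially encoded genes took a larger share of the reads in every NE library than in any Ctrl library. The share was 4.68%, 4.87% and 5.46% of the reads on genes in the Ctrl libraries and 9.26%, 7.27% and 6.05% in the NE libraries. The means were 5.00% ± 0.408 (SD, n = 3) and 7.52% ± 1.62 (SD, n = 3), a difference of 2.52 percentage points or 1.5-fold. The NE libraries differed among themselves more than the Ctrl libraries did, and NE replicate 1 was the highest. Without Ctrl replicate 3 the fold was 1.58, and without NE replicate 1 it was 1.33. The 95% Wilson intervals ran from 4.67% to 4.69% in the lowest library and from 9.24% to 9.27% in the highest, and cover counting error only. The separation of the groups rests on the read total as denominator. In normalized counts, the scale of the gene tests, the members summed to 900379 ± 56508 in Ctrl and 1240505 ± 320364 in NE (SD, n = 3). On that scale the groups overlapped, with NE replicate 3 at 950981.9 and Ctrl replicate 3 at 962235.8. More mitochondrial RNA per cell, less of the other RNA and a change in the mix of cells cannot be told apart in RNA of whole cultures, and mitochondrial DNA was not measured.

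By class, the rRNAs differed most between the groups and the tRNAs overlapped. The mRNAs took 4.39%, 4.57% and 5.21% of the reads in Ctrl and 8.57%, 6.72% and 5.58% in NE, a fold of 1.47 between the means. The rRNAs took 0.260%, 0.260% and 0.242% in Ctrl and 0.657%, 0.513% and 0.443% in NE, a fold of 2.12 that was 2.07 without Ctrl replicate 3 and 1.88 without NE replicate 1. For both classes the highest Ctrl library was below the lowest NE library in these shares. In normalized counts the mRNA sums overlapped, with NE replicate 3 at 877707.5 and Ctrl replicate 3 at 917029.3, while the rRNA sums did not. The tRNAs took 0.0350%, 0.0349% and 0.0150% in Ctrl and 0.0278%, 0.0305% and 0.0230% in NE. Their mean in NE was 0.957 of that in Ctrl, and 0.775 of it without Ctrl replicate 3, whose tRNA share was the lowest of all 6 libraries. Per 100 mRNA reads, the libraries held 5.93, 5.69 and 4.64 rRNA reads in Ctrl and 7.67, 7.63 and 7.94 in NE, so that the NE libraries also lay above the Ctrl libraries once the rRNAs were set against the mRNAs.

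**Figure D1:**
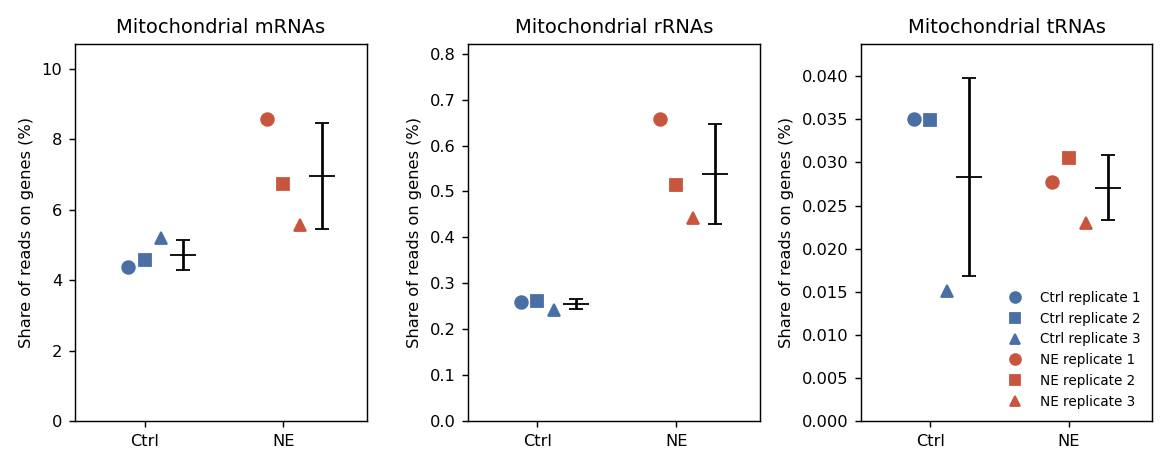
Share of the reads on genes (%, each axis from 0) taken by mitochondrial mRNAs, rRNAs and tRNAs in the Ctrl and NE libraries, with symbols for single libraries and bars for the mean ± SD (n = 3). The mRNA and rRNA shares of all NE libraries lie above those of all Ctrl libraries, while the tRNA shares overlap and Ctrl replicate 3 is lowest at 0.0150%.

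Of the 26 members tested, 5 were higher in NE and 0 were lower at an adjusted p under 0.05 (limma on log2(value + 1), Benjamini-Hochberg adjustment over 15013 genes). The 5 were MT-RNR2, MT-ND4L, MT-ND5, MT-RNR1 and MT-CO1. In the same test 24.6% of all genes were higher and 25.5% lower, so the count of members was not above that background. Neither direction held a member with at least a 2-fold change, the second threshold of the study, against 7.47% of all genes higher and 6.55% lower by that rule. At an unadjusted p under 0.05, 7 members were higher and 0 lower in limma. Genes that pass after adjustment also pass before it, so at least 24.6% of all genes were higher and 25.5% lower there. The count of 7 is thus no sign of a rise above the background. With edgeR and with DESeq2, run on the reads recovered from the normalized counts, 7 members were higher in each and 0 were lower, and DESeq2 put MT-RNR2 past 2-fold. Of all genes, edgeR called 23.8% higher and 26.5% lower and DESeq2 24.8% higher and 26.5% lower, so these counts were also near the background. Of the 26 log2 fold changes 23 were positive, with a median of 0.29 against 0.01 over all genes tested. For 6 of the 26 each NE library exceeded all Ctrl libraries, against 29.7% of all genes, and for 0 each lay below them, against 28.9%.

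The 2 libraries named above bear on these counts. Without Ctrl replicate 3, 10 members were higher and 3 lower, against 31.8% and 32.6% of all genes in that fit. Without NE replicate 1, 4 members were higher and 1 was lower, against 18.1% and 20.9%. NE replicate 1 held the highest count of all 6 libraries for 13 of the 13 mRNAs, and NE replicate 3 was the lowest of the NE libraries for 13 of the 13. Each gene's fold change was also computed after a trend on GC content was removed from each library. With this correction 2 members were higher (MT-RNR2 and MT-ND4L) and 2 lower (MT-ND3 and MT-TP), against 13.8% and 19.6% of all genes.

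**Figure D2:**
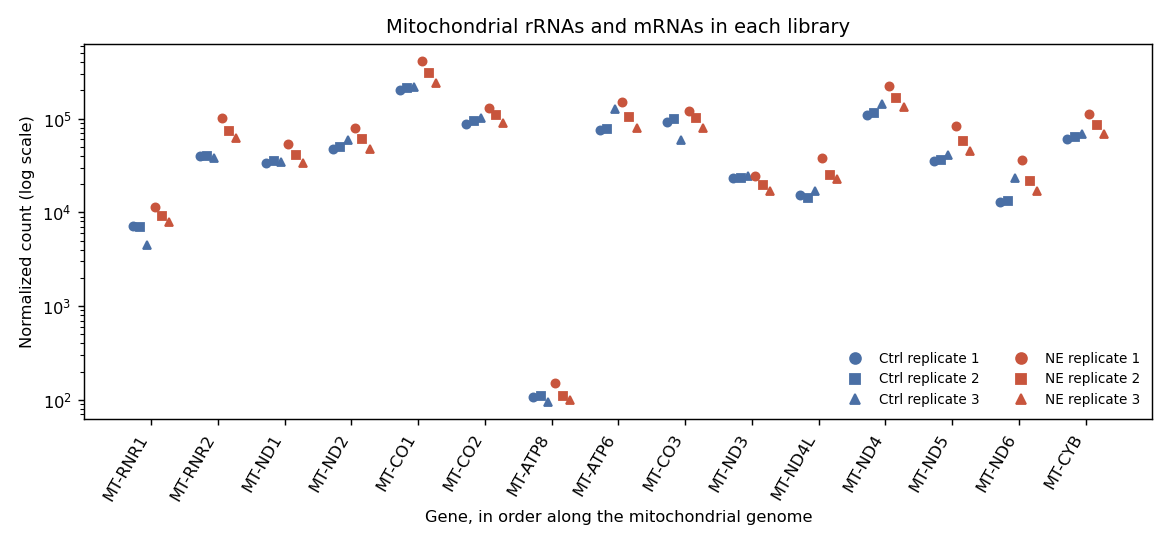
Normalized counts (log scale) of the 2 rRNAs and 13 mRNAs in each library, in genome order, with blue for Ctrl, red for NE and a symbol for each replicate number. NE replicate 1 is the highest library for all 13 mRNAs, and the NE symbols lie clear of the Ctrl symbols for 6 of the 15 genes.

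Both rRNAs of the mitochondrial ribosome rose in NE-treated cells. MT-RNR2, the 16S RNA of the large subunit (chrM:1671-3229), had 40226, 40402 and 38115 normalized counts in Ctrl and 101140, 74644 and 61761 in NE. The Ctrl libraries lay close together and the NE libraries were all higher. Its log2 fold change was 0.97 (standard error 0.165, adjusted p = 0.00139 by limma), and it stayed past the threshold with any 1 library left out, between 0.78 and 1.14. After the GC correction it was 0.59 (adjusted p = 0.0194 by limma). MT-RNR1, the 12S RNA of the small subunit (chrM:648-1601), had 7077, 7043 and 4444 normalized counts in Ctrl and 11357, 9098 and 7893 in NE. The groups did not overlap, and Ctrl replicate 3 was the lowest library. Its log2 fold change was 0.63 (standard error 0.197, adjusted p = 0.0253 by limma) and 0.40 without Ctrl replicate 3 (adjusted p = 0.0104), with an adjusted p of 0.11 without NE replicate 1, 0.064 without NE replicate 2 and 0.0996 after the GC correction. Per kilobase, MT-RNR2 was at 25390 in Ctrl and 50790 in NE, and MT-RNR1 at 6486 and 9905. The level of MT-RNR2 per kilobase was below that of MT-CO1, at 137400 and 207800. Whether rRNA was depleted or poly(A) RNA selected is not given in the sources used here, and the part of that step in the rRNA counts was not tested.

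The mitochondrial genome encodes 7 subunits of complex I, the NADH dehydrogenase that feeds electrons into the respiratory chain, and 2 of them rose. MT-ND4L, a small membrane subunit, had 15221, 14305 and 16918 normalized counts in Ctrl and 37935, 25094 and 22612 in NE. All NE libraries exceeded all Ctrl libraries, and the log2 fold change was 0.85 (standard error 0.179, adjusted p = 0.00403 by limma). It stayed past the threshold with any 1 library left out and after the GC correction (0.49, adjusted p = 0.0421 by limma). MT-ND5, a large membrane subunit of the proton-pumping arm (chrM:12337-14148), had 35435, 35842 and 41189 normalized counts in Ctrl and 84059, 58045 and 45202 in NE. The groups did not overlap, though NE replicate 3 lay just above Ctrl replicate 3. For MT-ND5 the log2 fold change was 0.69 (standard error 0.198, adjusted p = 0.017 by limma), past the threshold with any 1 library left out and 0.46 after the GC correction (adjusted p = 0.0927).

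The other 5 complex I mRNAs did not pass the test. MT-ND4, whose gene overlaps that of MT-ND4L (chrM:10760-12137), had 109828, 114315 and 142125 normalized counts in Ctrl and 224550, 164982 and 133500 in NE. NE replicate 3 lay below Ctrl replicate 3, so the groups overlapped. Its log2 fold change was 0.49 (standard error 0.189, adjusted p = 0.055 by limma), with an adjusted p of 0.0414 in edgeR, 0.0184 in DESeq2 and 0.00856 in limma without Ctrl replicate 3. Values per gene cannot tell whether MT-ND4L and MT-ND4 were read from 1 shared transcript or from separate ones. Whether reads that span both genes were dropped in the counting is not given either, and its part in their values was not tested. MT-ND6 is the only mRNA encoded on the minus strand (chrM:14149-14673). It had 12856, 13279 and 23456 normalized counts in Ctrl and 36444, 21468 and 17017 in NE, and the high Ctrl replicate 3 lay inside the NE range. Its log2 fold change was 0.58 (standard error 0.296, adjusted p = 0.132 by limma) and 0.86 without Ctrl replicate 3 (adjusted p = 0.00375). The library kit as named in the sample records does not mark the strand, so reads of MT-ND6 cannot be told from those of the opposite strand.

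MT-ND1 had 33534, 34916 and 34614 normalized counts in Ctrl and 53935, 40664 and 33323 in NE. MT-ND2 had 47086, 49464 and 59583 in Ctrl and 79764, 61052 and 47474 in NE. In both genes NE replicate 3 lay inside or below the Ctrl range, and the log2 fold changes were 0.28 and 0.25 (adjusted p = 0.168 and 0.285 by limma). MT-ND3 (chrM:10059-10404), another small membrane subunit, had a negative log2 fold change where the other mRNAs had positive ones. With quantile normalization it was positive (0.15), and with the GC correction MT-ND2 (-0.12), MT-ATP6 (-0.04) and MT-ATP8 (-0.38) were negative too. MT-ND3 had 23048, 23545 and 24586 normalized counts in Ctrl and 24749, 19719 and 16965 in NE, with NE replicate 1 above the Ctrl libraries and the other NE libraries below them. The log2 fold change was -0.23 (standard error 0.137, adjusted p = 0.189 by limma), -0.38 without NE replicate 1 (adjusted p = 0.0252) and -0.76 after the GC correction (adjusted p = 0.00139).

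MT-CYB encodes cytochrome b, the mitochondrial subunit of complex III (chrM:14747-15887). It had 61008, 63684 and 67807 normalized counts in Ctrl and 111327, 84873 and 67921 in NE. The groups did not overlap, but NE replicate 3 was almost level with Ctrl replicate 3. Its log2 fold change was 0.43 (standard error 0.166, adjusted p = 0.057 by limma), with an adjusted p of 0.0416 in edgeR and 0.0212 in DESeq2.

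Of the 3 subunits of complex IV, cytochrome c oxidase, MT-CO1 rose. MT-CO1 carries the catalytic centre of the enzyme (chrM:5904-7445). It had 203706, 213246 and 218800 normalized counts in Ctrl and 412130, 306578 and 242505 in NE. All NE libraries were above all Ctrl libraries, and MT-CO1 was the gene with the most counts in NE replicate 1 and the second in Ctrl replicate 1. The log2 fold change was 0.56 (standard error 0.178, adjusted p = 0.0259 by limma). This call was lost without Ctrl replicate 1, Ctrl replicate 2 or NE replicate 2 (adjusted p = 0.0784, 0.0642 and 0.0665 by limma) and after the GC correction (0.42, adjusted p = 0.123). It was also lost with quantile normalization, where the log2 fold change was 0.20 (adjusted p = 0.354 by limma), with no filter on low genes (adjusted p = 0.156), with a minimum mean of 1 (adjusted p = 0.0683) and with eBayes without trend (adjusted p = 0.0638). MT-CO2, which receives electrons from cytochrome c, had 88195, 94343 and 101820 normalized counts in Ctrl and 131138, 109843 and 90725 in NE. MT-CO3 had 92641, 99241 and 58943 in Ctrl and 121659, 101600 and 80188 in NE. Both overlapped between the groups, and their log2 fold changes were 0.21 and 0.29 (adjusted p = 0.252 and 0.284 by limma). The low Ctrl replicate 3 bears on MT-CO3, whose log2 fold change was 0.06 without it.

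Neither mitochondrial subunit of ATP synthase, complex V, passed the test. MT-ATP6, a subunit of the proton channel (chrM:8527-9207), had 75129, 77338 and 127095 normalized counts in Ctrl and 149587, 103108 and 80177 in NE. Ctrl replicate 3 was the second highest of the 6 libraries. For MT-ATP6 the log2 fold change was 0.25 (standard error 0.254, adjusted p = 0.439 by limma) and 0.49 without Ctrl replicate 3 (adjusted p = 0.0384). MT-ATP8 had 108, 109 and 94.1 normalized counts in Ctrl and 152, 109 and 98.7 in NE, with a log2 fold change of 0.19 (adjusted p = 0.481 by limma). Per kilobase MT-ATP8 was at 500.5 in Ctrl, against 136800 for MT-ATP6, although the genes overlap by the 46 bases shown in capitals above. Whether reads that span more than 1 gene were dropped in the counting is not given in the sources used here, and its part in the low count was not tested.

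Per kilobase of gene, the order of the mRNAs in Ctrl was MT-CO2 (138600), MT-CO1 (137400), MT-ATP6 (136800), MT-CO3 (106600), MT-ND4 (88600), MT-ND3 (68570), MT-CYB (56240), MT-ND4L (52120), MT-ND2 (49950), MT-ND1 (35940), MT-ND6 (31490), MT-ND5 (20690) and MT-ATP8. The first 3 were closer to each other than the spread of the Ctrl libraries. In NE, MT-CO1 came first at 207800, then MT-ATP6 at 162900 and MT-CO2 at 161700. MT-ND4L, at 96120, was above MT-ND3, at 59180. Apart from MT-ATP8, the mRNA count in a library never fell below 12276 reads, so counting error is small beside the spread of the libraries. Of the 20 genes with the highest mean count in the whole table, 8 were members.

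**Figure D3:**
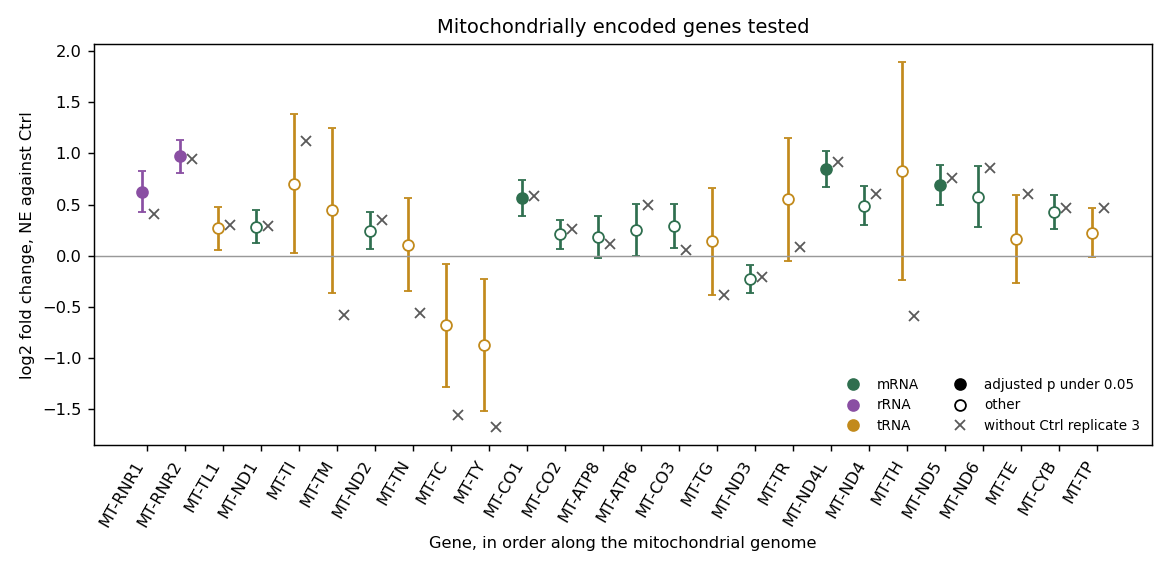
log2 fold change of NE against Ctrl (y axis) for the 26 members tested, in genome order, with circles for all 6 libraries, bars for ± 1 standard error, filled circles for an adjusted p under 0.05 and crosses for the value without Ctrl replicate 3. The 5 filled circles are MT-RNR1, MT-RNR2, MT-CO1, MT-ND4L and MT-ND5, and the crosses of MT-TN, MT-TM, MT-TH and MT-TG lie on the other side of 0 from their circles.

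Within the mRNAs, the shares of 6 of the 13 did not overlap between the groups, which is a measure that does not depend on the scaling of the libraries. Non-overlap was common in the series. In normalized counts, an unlike measure, each NE library exceeded all Ctrl libraries for 29.7% of all genes tested and lay below them for 28.9%. MT-CO1 took 25.5%, 25.6% and 23.9% of the mitochondrial mRNA counts in Ctrl and 28.1%, 27.9% and 27.6% in NE. MT-ND5 went from 4.41% ± 0.0996 (SD, n = 3) to 5.39% ± 0.302 (SD, n = 3) of the pool, and MT-ND4L from 1.82% ± 0.0978 to 2.48% ± 0.169. For these 3 the NE shares lay above all Ctrl shares. MT-ND3 took 2.89%, 2.82% and 2.68% in Ctrl and 1.69%, 1.80% and 1.93% in NE. MT-CO2 went from 11.2% ± 0.14 to 9.76% ± 0.733, and MT-ND2 from 6.11% ± 0.335 to 5.47% ± 0.0833. For MT-ND3, MT-CO2 and MT-ND2 the NE shares lay below all Ctrl shares. These shares sum to 100% in a library, so a larger share of one mRNA lowers those of the others, and no test was run on them.

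MT-ND3 and MT-ND4L are neighbours on the same strand, with the 65 bases of the tRNA gene MT-TR between them. There were 0.66, 0.608 and 0.688 MT-ND4L counts per MT-ND3 count in Ctrl and 1.53, 1.27 and 1.33 in NE. This pair was chosen after the values had been seen. Ctrl replicate 3 was unlike the other Ctrl libraries in the middle of the genome. There, MT-ATP6 took 13.9% of the pool, against 9.42% and 9.28% in the other Ctrl libraries, and MT-CO3 took 6.43%, against 11.6% and 11.9%. The MT-CO3 count per MT-ATP6 count was thus 0.464 in Ctrl replicate 3 and between 0.813 and 1.28 in the other 5 libraries.

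**Figure D4:**
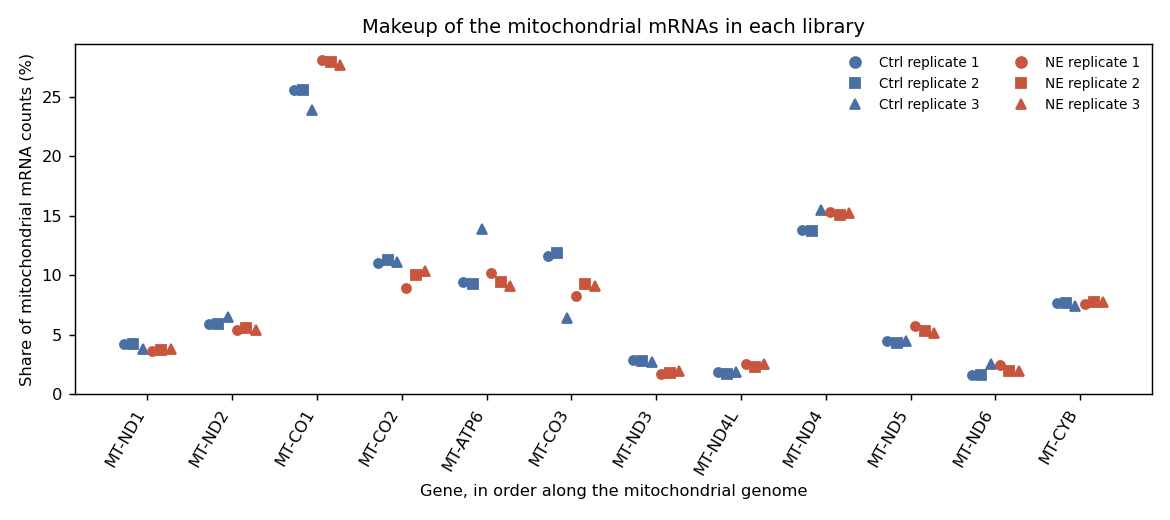
Share of each mRNA in the mitochondrial mRNA counts of a library (%, axis from 0), in genome order, with blue for Ctrl and red for NE; MT-ATP8, under 0.02% in each library, is left out. NE symbols lie above Ctrl symbols for MT-CO1, MT-ND4L and MT-ND5 and below them for MT-ND2, MT-CO2 and MT-ND3, and Ctrl replicate 3 stands off for MT-ATP6 and MT-CO3.

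The tRNAs carry amino acids to the mitochondrial ribosome, and none of the 11 tested passed the test with all 6 libraries in limma, edgeR or DESeq2. By limma 0 of them had an unadjusted p under 0.05, against at least 24.6% of all genes higher and 25.5% lower. The tRNA genes together held between 2702 and 6135 reads in a library, and MT-TN, MT-TC and MT-TP took between 88.5% and 91.9% of them. Mature tRNAs are short and heavily modified. MT-TN, the asparagine tRNA, had 3785, 3598 and 916 normalized counts in Ctrl and 2519, 2822 and 2200 in NE. Ctrl replicate 3 was the lowest library and the other Ctrl libraries were the highest. For MT-TN the log2 fold change was 0.11 (standard error 0.455, adjusted p = 0.859 by limma) and -0.56 without Ctrl replicate 3 (adjusted p = 0.000271).

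MT-TC, the cysteine tRNA, had 1383, 1385 and 225 normalized counts in Ctrl and 470, 632 and 353 in NE. MT-TY, the tyrosine tRNA next to it, had 243, 277 and 48.0 in Ctrl and 73.1, 153 and 46.6 in NE. In both, Ctrl replicates 1 and 2 were the highest libraries and Ctrl replicate 3 was among the lowest 2. The log2 fold changes were -0.68 and -0.87 (standard errors 0.604 and 0.642, adjusted p = 0.371 and 0.283 by limma). Without Ctrl replicate 3 they were -1.55 and -1.67 (adjusted p = 6.61e-06 and 0.000989 by limma), in a fit where 32.6% of all genes were lower. MT-TP, the proline tRNA at the other end of the gene map, had 686, 783 and 1202 normalized counts in Ctrl and 1333, 1001 and 775 in NE. Here Ctrl replicate 3 was high rather than low. Its log2 fold change was 0.23 (standard error 0.24, adjusted p = 0.454 by limma), 0.46 without Ctrl replicate 3 (adjusted p = 0.0291) and -0.49 after the GC correction (adjusted p = 0.0432). The MT-TN count per MT-TP count was 5.52, 4.6 and 0.762 in Ctrl and 1.89, 2.82 and 2.84 in NE.

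MT-TL1, the leucine tRNA that follows MT-RNR2, had 120, 153 and 147 normalized counts in Ctrl and 191, 195 and 128 in NE, with a log2 fold change of 0.27 (adjusted p = 0.305 by limma). The remaining 6 tested tRNAs had under 60 normalized counts in each library and groups that overlapped. MT-TE had 24.1, 22.8 and 59.8 in Ctrl and 53.4, 28.1 and 31.1 in NE, and MT-TG had 26.2, 31.1 and 8.82 against 20.8, 32.9 and 14.6. MT-TR had 24.1, 12.4 and 5.88 in Ctrl and 26.7, 25.2 and 9.14 in NE, and MT-TI had 2.09, 11.4 and 13.7 against 12.8, 16.5 and 9.14. MT-TM, the initiator of mitochondrial translation, had 27.2, 20.7 and 1.96 in Ctrl and 10.9, 16.5 and 21.0 in NE, and MT-TH had 13.6, 23.9 and 0 against 9.88, 11.6 and 13.7. By limma none of these 6 passed the test. The 9 tRNAs under the minimum were MT-TV, MT-TQ, MT-TA, MT-TS1, MT-TD, MT-TK, MT-TS2, MT-TL2 and MT-TT. Of the 20 tRNAs, 7 were at 0 in at least 1 library and 9 were lowest in Ctrl replicate 3. As for MT-ND6, reads of the 8 tRNAs on the minus strand cannot be told from transcripts of the plus strand.

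The nuclear-encoded partners of these subunits were at lower levels in NE-treated cells. The mitochondrially encoded subunits of each complex had positive medians in the fit with all 6 libraries and no GC correction. Of 72 listed nuclear genes for subunits of complexes I, III, IV and V, 71 were tested, and 43 of them fell while 1 rose (limma, Benjamini-Hochberg adjustment), against the 25.5% of all genes that fell. The median log2 fold change of the nuclear subunits was -0.60, and 67 of the 71 were negative. For complex I it was -0.59 over 36 nuclear genes and 0.49 over the 7 mitochondrial ones. For complex III it was -0.76 over 9 nuclear genes, against 0.43 for MT-CYB. For complex IV it was -0.78 over 11 and 0.29 over 3, and for complex V -0.47 over 15 and 0.22 over 2. The difference between the mitochondrial and the nuclear genes was not tested, since the lists were chosen with results known. After the GC correction the median of the nuclear subunits was -0.65, with 51 lower and 0 higher, against 19.6% and 13.8% of all genes. That of the mitochondrial mRNAs was 0.19. MT-ATP6 and MT-ATP8 of complex V were then at -0.04 and -0.38, so the positive median of complex V was lost. Without NE replicate 1 they were at 0.009 and 0.001.

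Of the nuclear subunits, 9 fell at least 2-fold, and the number was 20 without Ctrl replicate 3, 4 without Ctrl replicate 1 or NE replicate 1 and 5 without Ctrl replicate 2. It was 3 when libraries were scaled by their totals, with or without the mitochondrial genes, and 14 after the GC correction. Of all genes, 6.55% fell at least 2-fold with all 6 libraries and 10.1% without Ctrl replicate 3. The share was 5.18% without Ctrl replicate 1, 5.57% without NE replicate 1 and 5.2% without Ctrl replicate 2. With totals it was 4% with and 3.51% without the mitochondrial genes, and after the GC correction it was 2.86%. The 9 nuclear subunits were, in complex I, NDUFA2 (-1.02 on the log2 scale), NDUFB2 (-1.06), NDUFB8 (-1.28) and NDUFS7 (-1.22). In the others they were CYC1 (-1.04), the cytochrome c1 of complex III, COX5B (-1.05) and COX8A (-1.20) of complex IV, and ATP5F1D (-1.01) and ATP5MF (-1.39) of ATP synthase. CYC1 went from 3850 ± 301 to 1872 ± 47.3 normalized counts (SD, n = 3), whereas ATP5MF varied widely, at 1295 ± 736 and 439 ± 148. With 1 library left out at a time, ATP5MF kept its call in 1 fit of 6 (adjusted p up to 0.165, without NE replicate 1), COX5B lost it without NE replicate 1 (adjusted p = 0.0737 by limma), and the other 7 kept theirs. NDUFA5 was the nuclear subunit that rose, from 679 ± 160 to 1031 ± 31.4 normalized counts, a log2 fold change of 0.63 that was -0.08 after the GC correction.

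**Figure D5:**
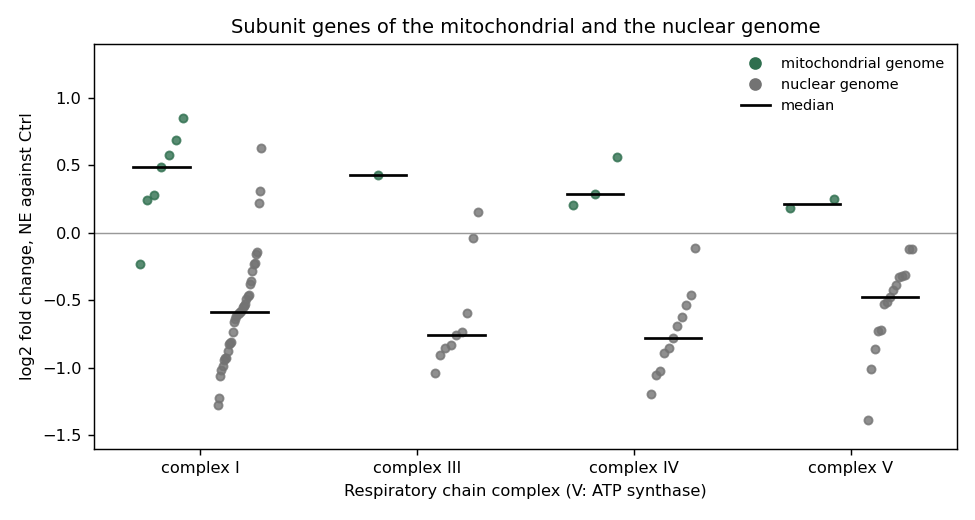
log2 fold change of NE against Ctrl (y axis) for the mitochondrially encoded (green) and nuclear-encoded (grey) subunit genes of complexes I, III, IV and V, with black lines for the medians. The green medians run from 0.22 to 0.49 and the grey medians from -0.78 to -0.47.

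The nuclear genes that transcribe, process and stabilise mitochondrial RNA moved in both directions. Of 40 listed genes, all tested, 11 rose and 14 fell, near the 24.6% and 25.5% of all genes, with a median log2 fold change of 0.03. Among 9 transcription genes 5 rose and 1 fell, while after the GC correction 1 rose and 1 fell, with a median of -0.08. POLRMT, the mitochondrial RNA polymerase, fell from 2789 ± 287 to 1780 ± 264 normalized counts (SD, n = 3), a log2 fold change of -0.65 (adjusted p = 0.00351 by limma). TFAM, which packages mitochondrial DNA and starts transcription, rose from 1038 ± 164 to 1421 ± 34.1, at 0.46 (adjusted p = 0.0142 by limma), a call that was lost without Ctrl replicate 1, Ctrl replicate 2 or NE replicate 2 (adjusted p = 0.0517, 0.0669 and 0.0598). The GC correction took POLRMT to -0.02 and TFAM to -0.22, neither past the threshold. TFB2M, the other initiation factor, was at 0.16 (adjusted p = 0.556 by limma).

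The elongation factor TEFM rose by 0.83 on the log2 scale, from 56.9 to 101 normalized counts (adjusted p = 0.0177 by limma), a call lost without Ctrl replicate 2, NE replicate 1 or NE replicate 2 (adjusted p = 0.0667, 0.0623 and 0.0791). MTERF1, MTERF2 and MTERF3 belong to a family of mitochondrial transcription termination factors. They rose by 0.81, 1.24 and 0.36, and MTERF2, from 34.1 ± 5.00 to 82.6 ± 16.7 normalized counts (SD, n = 3), was the 1 gene of the list past 2-fold. It was also the 1 gene of the list higher after the GC correction (0.95, adjusted p = 0.0193 by limma).

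Of 15 genes for RNA stability and decay, 5 rose and 4 fell, near the shares of all genes. After the GC correction 0 rose and 4 fell, against 13.8% and 19.6% of all genes, and the median log2 fold change went from 0.304 to -0.226. LRPPRC and SLIRP form a complex that protects mitochondrial mRNAs, and they moved in opposite directions. LRPPRC rose from 2461 ± 544 to 4043 ± 464 normalized counts (SD, n = 3), at 0.73 (adjusted p = 0.0044 by limma), and SLIRP fell from 1070 ± 36.0 to 742 ± 39.3, at -0.53 (adjusted p = 0.00307 by limma). After the GC correction LRPPRC was at 0.11 (adjusted p = 0.385) and SLIRP at -1.10 (adjusted p = 0.000138 by limma). The poly(A) polymerase MTPAP, the exoribonuclease PNPT1 and its helicase SUPV3L1 did not pass the test, at 0.30, 0.33 and -0.11 (adjusted p = 0.291, 0.0694 and 0.529 by limma). FASTKD1, FASTKD2, FASTKD5 and ANGEL2 rose by 0.31 to 0.79, and FASTK, FASTKD4 and REXO2 fell by 0.82, 0.91 and 0.45. FASTK and the FASTKD proteins are a family that binds mitochondrial RNA.

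Of the 4 genes for cutting the precursors at tRNAs, TRMT10C rose by 0.86, whereas HSD17B10, its partner in mitochondrial RNase P, fell by 0.94 and ELAC2, which cuts the 3′ end of tRNAs, fell by 0.62. All 4 genes for rRNA modification fell, MRM1 by 0.93, MRM2 by 0.47, MRM3 by 0.88 and NSUN4 by 0.35. After the GC correction 2 of these 4 were lower, and without NE replicate 1 only 1 was. Of the 8 genes for DNA replication, TWNK, the mitochondrial helicase, fell by 0.84, POLG, the DNA polymerase, by 0.44 and SSBP1, the single-strand binding protein, by 0.52, and none rose. Of the 25 called genes of the list, 14 kept the call with any 1 library left out. MTERF3, SSBP1, FASTKD2, FASTKD5 and NSUN4 kept it in the fit without Ctrl replicate 3 alone. Over the 40 genes, 17 rose and 15 fell without Ctrl replicate 3, against 31.8% and 32.6% of all genes. After the GC correction 1 rose and 11 fell, against 13.8% and 19.6% of all genes. The count of rises thus rests on how GC content is treated, as does that over all genes.

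The nuclear genome holds copies of mitochondrial genes whose reads can be confused with theirs. The table lists 37 such copies by symbol, which together held between 0.0412% and 0.0528% of the counts of the mitochondrial genes in a library, and 3 were tested. MTCO1P12, a copy of MT-CO1, had 358, 306 and 302 normalized counts in Ctrl and 532, 414 and 387 in NE, a log2 fold change of 0.45 (adjusted p = 0.0363 by limma), a call kept by 3 of 6 fits with 1 library left out. MTND2P28 and MTCO3P12 averaged 26.0 and 13.95 normalized counts in Ctrl and 37.2 and 19.9 in NE, with adjusted p of 0.24 and 0.494 by limma. How many reads of the copies come from the mitochondrial genome, or the reverse, was not tested.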

How the data were processed

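RNA-seq of 3 Ctrl and 3 NE libraries of NCI-H1299 cells was re-analysed. The authors extracted total RNA with TRIzol, made libraries with the NEBNext Ultra kit, aligned reads to hg38 with HISAT2 2.0.5 and counted them per gene with featureCounts 1.5.0-p3, per the submitters' processing notes. Counting options and annotation release are not given in the sources used here. The deposited signal is described as FPKM, but holds read counts divided by 1 size factor per library: 100% of the values were whole multiples of the value of 1 read (tolerance 0.001), from which reads on genes (16852751 to 17979206 per library) were recovered. Columns were matched to samples by group letter and replicate number. Reads carry no molecular identifiers, so intervals cover counting error only.

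Normalized counts were compared with limma 3.58.1 (R 4.3.3) on log2(value + 1), eBayes with trend. Genes averaging 10 or more (15013) were tested, with Benjamini-Hochberg adjustment; fold changes on this scale understate those of low genes. Calls needed an adjusted p under 0.05, and were counted again at 2-fold (1 on the log2 scale). Shares, makeup and class medians were given no test. An exact permutation test of 3 against 3 cannot go below p = 0.1. Alternatives were other pseudocounts, filters, scalings, eBayes without trend or robust, a replicate block, fits without each library, count tests on those reads (edgeR 4.0.16, DESeq2 1.42.0) and a GC correction that removed from each library a natural spline with 5 degrees of freedom on transcript GC content, from GENCODE v44 (25813 genes matched). The test was run on simulated data. All members were named. Of the machinery list, POLRMT, TFAM, TFB2M, TEFM, LRPPRC, SLIRP, MTPAP, PNPT1, SUPV3L1 and the called genes were named, of the subunit genes those that rose or fell at least 2-fold, and of the nuclear copies the 3 highest. Members and lists were chosen with earlier results of these data known. Same-numbered Ctrl and NE libraries had correlations of -0.163, 0.08 and -0.151 in their deviations from the group means, which gave no sign of pairing. With 3 libraries in a group, and Ctrl replicate 3 apart from the others, these correlations cannot exclude it. Of the listed markers of the line, 1 is not reported here.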

Additional observations from a re-analysis of the deposited data

How the results depend on the processing

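The count of mitochondrial genes higher in NE (5) was 9 when libraries were scaled by their totals with or without these genes, 10 with quantile normalization, 2 with eBayes without trend and 2 with the GC correction, which also gave 2 lower. Of all genes, 30.5% were higher with totals that hold these genes, 32.3% with totals that do not, 25.1% with quantile normalization and 23% with eBayes without trend, which lost MT-CO1, MT-ND5 (adjusted p = 0.0541 by limma) and MT-RNR1 (adjusted p = 0.0725). Those past 2-fold numbered 2, without these genes in the total, 1 with them, 2 with quantile normalization and 1 with DESeq2. The shares of all genes were 12.3%, 11%, 7.03% and 7.32%. Scaling by totals without these genes moved the median log2 fold change of all genes by 0.173 and gave 4851 higher and 2840 lower genes, against 3693 and 3828, and scaling by totals with them moved it by 0.135 and gave 4583 and 3002. Of the mitochondrial RNA machinery, 7 genes were higher with a replicate block and 1 with the GC correction, against 21% and 13.8% of all genes. Past 2-fold, 3 were higher with totals without mitochondrial genes and 0 with the GC correction, against 12.3% and 3.58% of all genes. The number lower was 8 with either total, against 18.9% of all genes without and 20% with the mitochondrial genes in it. Past 2-fold it was 1 with quantile normalization, 1 with edgeR and 3 with the GC correction, against 6.67%, 7.3% and 2.86%. The median log2 fold change of the rRNAs was 0.509 and that of the tRNAs -0.378 with the GC correction. With a replicate block 5 mitochondrial genes were higher, as without it, against 21% of all genes. Same-numbered libraries gave no sign of deviating together, which cannot exclude pairing with 3 libraries in a group.

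Single genes changed sign with the GC correction: MT-ATP6 (-0.039), MT-ATP8 (-0.376), MT-ND2 (-0.124), MT-TE (-0.422), MT-TG (-0.539), MT-TI (-0.005), MT-TL1 (-0.334), MT-TN (-0.378), MT-TP (-0.486), MT-TR (-0.074), ANGEL2 (-0.015), FASTKD5 (-0.013), MTERF3 (-0.131), MTPAP (-0.164), NDUFA5 (-0.082), PNPT1 (-0.226), TFAM (-0.216) and TFB2M (-0.321). Others did so with quantile normalization, MT-ND3 (0.145) and MT-TG (-0.064), with edgeR, MT-TH (-0.085), MT-TM (-0.043) and MT-TN (-0.149), and with DESeq2, MT-TH (-0.077), MT-TM (-0.033) and MT-TN (-0.132). SUPV3L1 was at 0.069 and 0.03 when scaled by totals without and with mitochondrial genes. The causes of these changes were not tested.

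With 1 library left out, between 3 and 10 mitochondrial genes were higher (0 to 1 past 2-fold) and between 0 and 3 lower (0 to 2 past 2-fold), the 10 and the 3 without Ctrl replicate 3. Between 6 and 17 machinery genes were higher (1 past 2-fold each time) and between 8 and 15 lower (0 to 2 past 2-fold). Of all genes, between 18.1% and 31.8% were higher and between 19.7% and 32.6% lower in these fits. Past 2-fold, between 5.44% and 10.7% of all genes were higher and between 5.18% and 10.1% lower. Medians ran from 0.147 to 0.469 for mRNAs, 0.632 to 0.942 for rRNAs and -0.387 to 0.425 for tRNAs. The differences in share ran from 1.65 to 3.26 percentage points for all members, 1.43 to 2.93 for mRNAs, 0.224 to 0.331 for rRNAs and -0.00786 to 0.00212 for tRNAs. Within the mRNA pool they ran from -0.746 to -0.448 for MT-ND2, 2.33 to 3.19 for MT-CO1, -1.68 to -0.982 for MT-CO2, -1.06 to -0.933 for MT-ND3, 0.606 to 0.758 for MT-ND4L and 0.809 to 1.1 for MT-ND5. Signs changed within the range of 7 genes. MT-TE ran from -0.117 to 0.599, negative without Ctrl replicate 1 (-0.04), Ctrl replicate 2 (-0.077) and NE replicate 1. MT-TG ran from -0.387 to 0.468, negative also without NE replicate 2 (-0.151), and MT-TI from -0.003 (without Ctrl replicate 1) to 1.122. MT-TH ran from -0.592 to 1.725, MT-TM from -0.579 to 1.048, MT-TN from -0.561 to 0.461 and SUPV3L1 from -0.205 to 0.001, and for these 4 and MT-TG the sign changed without Ctrl replicate 3.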
